A study of Mus musculus with 6 samples.

Results

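The 10 genes described here encode proteins of the apical junction and of the polarity machinery of neural progenitors, namely Cdh2, Ctnna2, Ctnnb1, Tjp1, Pard3, Prkci, Crb2, Llgl1, Numb and Numbl. They were taken by symbol from a deposited table of 52636 genes, each symbol matched 1 gene ID, and all 10 had enough counts to be tested. Their transcripts were measured by RNA sequencing of cells sorted for the surface protein Prominin1 from forebrains of mouse embryos at E12.5. SmadNes embryos (Smad1wt/fl and Smad5wt/fl, with Nestin:Cre+/0) had Cre under Nestin regulatory DNA, active in neural progenitors, beside a floxed copy of both Smad1 and Smad5. Their control littermates (Nestin:Cre0/0) lacked Cre and had the same floxed alleles. Both groups had a mixed CD1, 129/ola and C57BL6 background and 3 pools of cells each, named SF3, SF4 and SF5_6 in both. How many embryos or litters a pool stands for is not given here, the submitters chose the 3 pairs for RNA integrity, and a cell that Cre acts on keeps a wild-type copy of each gene.

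Radial glia span the wall of the embryonic forebrain, and their apical endfeet are held together at the ventricle by a belt of adherens junctions. N-cadherin joins neighbouring endfeet and is linked to actin by beta-catenin and alpha-catenin. The Par complex with atypical protein kinase C, and the Crumbs complex, mark the apical side. Lgl acts against them from the basolateral side, and Numb proteins take part in endocytosis, in cadherin trafficking and in restraint of Notch signalling. Smad1 and Smad5 carry signals of bone morphogenetic proteins into the nucleus, and the comparison of SmadNes with control pools asks which transcripts differ when Cre is present with the floxed alleles.

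The pools held between 32997423 and 40744672 expected counts in all, and values are given as CPM, which are counts relative to a fixed library size, scaled between pools by edgeR's trimmed mean of M-values (TMM). The 3 counts that an observed 0 still allows came to at most 0.0909 CPM, counting error alone. The targeted genes were higher in the pools labelled SmadNes. Smad5 had 388, 411 and 373 CPM in SmadNes pools SF3, SF4 and SF5_6, against 289.6, 299.9 and 287 CPM in control pools. Smad1 had 86.9, 92.9 and 85.7 CPM in SmadNes, against 72.7, 77.8 and 76.1 CPM in controls. Counts of a whole gene do not check the deletion of a floxed part, so directions rest on the labels. Markers of radial glia were high in all 6 pools, with Prom1 between 106 and 132 CPM, Nes between 384 and 566 CPM, Sox2 between 111 and 173 CPM and Pax6 between 128 and 150.4 CPM. Markers of later cells were also high, with Eomes of intermediate progenitors between 392 and 675 CPM, Tubb3 of neurons between 814 and 951 CPM and Dcx between 935 and 1494 CPM, so the values below are averages over a mixture of cells. In such bulk pools, fewer cells of a type and less RNA per cell cannot be told apart.

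Of the 10 genes, Numbl, Tjp1 and Crb2 varied most clearly between pools, and Numbl and Tjp1 also had the smallest p-values between genotypes once the pools were paired. For these 3, the stretch upstream of the RefSeq start (GRCm38.p6, gene strand, 5′ to 3′) is shown, because Smad1 and Smad5 bind DNA. Windows of 250 bases were searched for the letters GGCGCC, a GC-rich element to which Smad1 and Smad5 are known to bind and which reads the same on both strands, and any match would be in capitals. The Numbl stretch, chr7:27258511-27258724 on the plus strand, has 214 bases, since the rest of its window is an annotated 5′ UTR of another Numbl transcript and is not shown. The Tjp1 window is chr7:65371245-65371494 on the minus strand. Both lie inside the longer GENCODE gene models given below, so they are upstream of the RefSeq start and not of the whole gene. The Crb2 window is chr2:37775999-37776248 on the plus strand.
Numbl: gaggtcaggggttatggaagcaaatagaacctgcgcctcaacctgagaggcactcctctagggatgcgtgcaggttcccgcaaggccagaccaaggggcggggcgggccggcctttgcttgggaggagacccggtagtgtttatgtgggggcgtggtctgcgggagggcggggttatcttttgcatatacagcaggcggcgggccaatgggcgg
Tjp1: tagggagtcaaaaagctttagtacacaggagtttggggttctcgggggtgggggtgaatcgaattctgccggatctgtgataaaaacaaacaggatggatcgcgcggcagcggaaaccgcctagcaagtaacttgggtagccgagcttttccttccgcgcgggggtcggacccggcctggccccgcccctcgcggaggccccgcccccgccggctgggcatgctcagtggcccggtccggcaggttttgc
Crb2: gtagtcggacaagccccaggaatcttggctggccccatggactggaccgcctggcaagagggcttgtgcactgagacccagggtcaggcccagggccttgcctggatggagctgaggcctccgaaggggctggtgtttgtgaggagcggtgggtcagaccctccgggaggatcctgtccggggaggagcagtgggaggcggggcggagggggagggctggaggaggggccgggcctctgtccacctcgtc
The full Numbl window held these letters once, in the UTR stretch that is not shown, and the Tjp1 and Crb2 windows did not hold them. Of the 10 genes, 9 had RefSeq windows, 13 in all, and Cdh2 had none. GGCGCC stood in 3 of the 13 windows, 1 each of Ctnnb1, Pard3 and Numbl, against 9.59% of 32851 windows of the same length over all genes. The palindrome GTCTAGAC, another Smad-binding element, stood in 0 of the 13 windows and in 0.167% of all windows.

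The junction and polarity transcripts did not differ detectably between genotypes. EdgeR's quasi-likelihood test called 0 of the 10 at an adjusted p below 0.05, against 0% of all 16869 tested genes. Their adjusted p was 0.99999 for each, and 0 of the 10 lay below an unadjusted p of 0.05, against 1.05% of all genes. DESeq2 also called 0 of the 10, against 0.0415% of all genes, and limma-voom called 0. The log2 differences, SmadNes minus control, ran between -0.19 and 0.12, 5 were positive, and their median was -0.0013, against -0.00038 over all tested genes. SmadNes and control pools overlapped for all 10 genes, while 4.77% of all tested genes had groups that did not overlap, 2.39% with SmadNes higher and 2.38% with SmadNes lower. The same edgeR test left Smad5 uncalled too, although its groups did not overlap (log2 difference 0.42, SE 0.053, adjusted p 0.965). With the replicate name as a block, edgeR called Smad5 (adjusted p 0.00757). A gene left uncalled by the test without the block may therefore still differ.

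**Figure D1:**
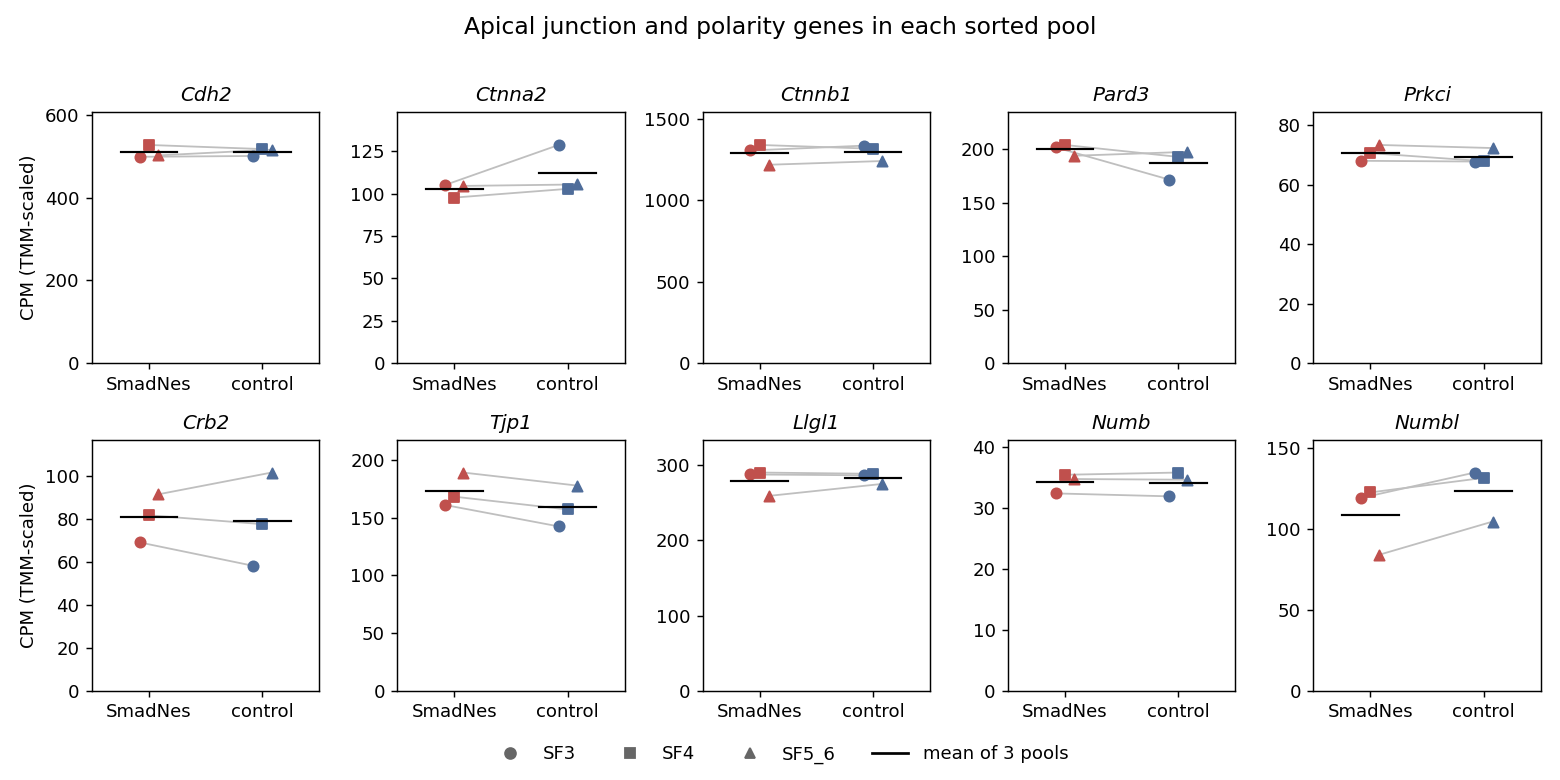
TMM-scaled CPM (vertical axes, each starting at 0) of the 10 genes in the SmadNes pools (left, red) and control pools (right, blue). Circles, squares and triangles are the pools SF3, SF4 and SF5_6, grey lines join pools of 1 name, and black bars are means of 3 pools. Cdh2 lies between 499.6 and 528 CPM in all 6 pools, whereas Crb2 and Numbl spread by pool name.

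Among the adhesion genes, Cdh2 was the steadiest of the 10. Cdh2 (ENSMUSG00000024304.14, GRCm38 chromosome 18), which encodes N-cadherin, the main cadherin of neural junctions, had 499.6, 528 and 503 CPM in SmadNes pools SF3, SF4 and SF5_6, against 502, 518 and 517 CPM in control pools. The pools of both genotypes were interleaved, with the highest and the lowest both in SmadNes. The means were 510.3 ± 15.7 CPM in SmadNes and 512 ± 9.26 CPM in controls (SD, n = 3 each), and the log2 difference of -0.0056 (SE 0.047) had a 95% interval from -0.12 to 0.11. That interval allows between 0.92-fold and 1.08-fold. The coefficient of variation of Cdh2 over the 6 pools was 2.26%, against a median of 5.38% for the 10 genes and 6.36% for the 9921 tested genes averaging 10 CPM or more.

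The catenins lie beneath the cadherin. Ctnnb1 (ENSMUSG00000006932.17, chromosome 9), which encodes beta-catenin, a junction protein that is also the effector of Wnt signalling, had 1305, 1339 and 1218 CPM in SmadNes pools, against 1335, 1316 and 1241 CPM in control pools. In both genotypes the SF5_6 pool was the lowest. Its log2 difference of -0.011 (SE 0.061) had a 95% interval from -0.16 to 0.14. Ctnna2 (ENSMUSG00000063063.12, chromosome 6), the alpha-catenin of neural tissue, had 105, 97.7 and 105 CPM in SmadNes pools and 129, 103 and 105 CPM in control pools. The control pool SF3 stood above the other 5, and the rest overlapped. The Ctnna2 log2 difference was -0.13 (SE 0.095), with an interval from -0.36 to 0.096. Tjp1 (ENSMUSG00000030516.14, chromosome 7, 65296165 to 65527781), which encodes the junction scaffold ZO-1, had 161, 168 and 189 CPM in SmadNes pools and 142, 157 and 178 CPM in control pools. SmadNes was the higher member of each of the 3 pairs, but the groups overlapped because SF5_6 was high in both. Its means were 173 ± 14.6 CPM in SmadNes and 159 ± 17.8 CPM in controls (SD, n = 3 each), with a log2 difference of 0.12 (SE 0.0998) and an interval from -0.12 to 0.36.

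No apical complex gene passed the test either. Pard3 (ENSMUSG00000025812.17, chromosome 8), the scaffold of the Par complex, had 202, 204 and 194 CPM in SmadNes pools, against 171, 193 and 197 CPM in control pools. The control pool SF3 was the lowest of the 6. Pard3 had a log2 difference of 0.094 (SE 0.065), with an interval from -0.064 to 0.25. Prkci (ENSMUSG00000037643.14, chromosome 3), the iota form of atypical protein kinase C, had 68.1, 70.7 and 73.4 CPM in SmadNes and 67.9, 68.0 and 72.4 CPM in controls. SmadNes was higher in 3 of 3 pairs by little, with a log2 difference of 0.028 (SE 0.051). Crb2 (ENSMUSG00000035403.10, chromosome 2), a transmembrane Crumbs protein, had 69.1, 81.7 and 91.5 CPM in SmadNes pools and 58.2, 77.6 and 102 CPM in control pools. Both genotypes were lowest in SF3 and highest in SF5_6, so the Crb2 interval was wide, from -0.48 to 0.54 around a log2 difference of 0.029 (SE 0.21). The Crb2 log2 difference was 0.25 in the SF3 pair, 0.075 in SF4 and -0.15 in SF5_6, so the pairs did not go the same way.

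The basolateral and Numb genes completed the set. Llgl1 (ENSMUSG00000020536.12, chromosome 11), a mammalian Lgl protein, had 288, 290.4 and 259 CPM in SmadNes and 287, 289 and 275 CPM in controls, a log2 difference of -0.023 (SE 0.0595). Numb (ENSMUSG00000021224.15, chromosome 12) had 32.3, 35.4 and 34.7 CPM in SmadNes and 31.8, 35.7 and 34.6 CPM in controls, a log2 difference of 0.0030 (SE 0.069). Its means were nearly the same, at 34.1 ± 1.6 CPM in SmadNes and 34.1 ± 2.00 CPM in controls (SD, n = 3 each). Numbl (ENSMUSG00000063160.12, chromosome 7, 27258433 to 27282144), the Numb-like paralog, had 119, 122 and 83.9 CPM in SmadNes pools and 135, 131 and 104 CPM in control pools. SmadNes was the lower member of each of the 3 pairs, and the groups overlapped because the control pool SF5_6 lay below SmadNes SF3 and SF4. The Numbl means were 108 ± 21.3 CPM in SmadNes and 123 ± 16.6 CPM in controls (SD, n = 3 each), with a log2 difference of -0.19 (SE 0.17) and an interval from -0.59 to 0.22.

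With the replicate name as a block, which sets each SmadNes pool against the control pool of its name, edgeR still called 0 of the 10 genes, against 0.0237% of all genes. The intervals narrowed, and 3 of the 10 lay below an unadjusted p of 0.05, against 6.23% of all genes. Numbl had a blocked log2 difference of -0.197 (SE 0.046, 95% interval from -0.30 to -0.093), 0.87-fold, at an unadjusted p of 0.00218 and an adjusted p of 0.397. Tjp1 had a blocked difference of 0.12 (SE 0.036, interval from 0.039 to 0.203), 1.09-fold, at an unadjusted p of 0.00875 and an adjusted p of 0.582. Ctnna2 had a blocked difference of -0.13 (SE 0.054), at an unadjusted p of 0.0441 and an adjusted p of 0.784, with -0.29 in the SF3 pair, -0.074 in SF4 and -0.012 in SF5_6. Ctnna2, Prkci, Tjp1 and Numbl, 4 of the 10, went the same way in all 3 pairs, against 28.1% of all tested genes. DESeq2 with the block called 0 of the 10, against 0.083% of all genes. Numbl and Tjp1 are the 2 genes of the set on chromosome 7, where 9.71% of 1328 tested genes lay below an unadjusted p of 0.05 in the blocked fit, against 5.93% of 15541 genes elsewhere. Of those 129 genes on chromosome 7, 89 were lower in SmadNes, as Numbl was, whereas Tjp1 was higher. The blocked fit called 3 genes on chromosome 7 and 1 elsewhere. The part of chromosome 7 in the values of Numbl and Tjp1 was not tested. Several lists of cell type markers leaned 1 way in the fit without the block, although edgeR with the block called 0 of their genes. Counts of positive log2 differences for these lists are from the fit without the block, and their medians and p-values from the fit with it. Ventral forebrain markers had a positive log2 difference in 0 of 9 (median -0.77 with the block, 6 below an unadjusted p of 0.05), and summed to 70.3, 72.2 and 188 CPM in SmadNes pools, against 122, 76.4 and 259.9 CPM in control pools. Erythroid markers were positive in 0 of 8 tested (median -0.34, 4 below that p), choroid plexus and hem markers in 0 of 8 (median -0.026, 0 below that p) and mesenchymal markers in 8 of 8 (median 0.087, 0 below that p). Neuronal markers were positive in 3 of 12 (median -0.090), and 5 lay below an unadjusted p of 0.05. Of these, Reln was higher in SmadNes (blocked log2 difference 0.33, unadjusted p 2.7e-05), and Tubb3, Mapt, Nefm and Elavl3 were lower. Radial glia markers were positive in 9 of 11 (median 0.043, 3 below that p). With the block some signs changed, as for Wnt3a (-0.026 to 0.029), Col1a1 (0.083 to -0.058), Elavl4 (0.0012 to -8.1e-05) and Hes5 (-0.0015 to 0.011). The part of these marker lists in the paired differences of Numbl, Tjp1 and Ctnna2 was not tested.

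**Figure D2:**
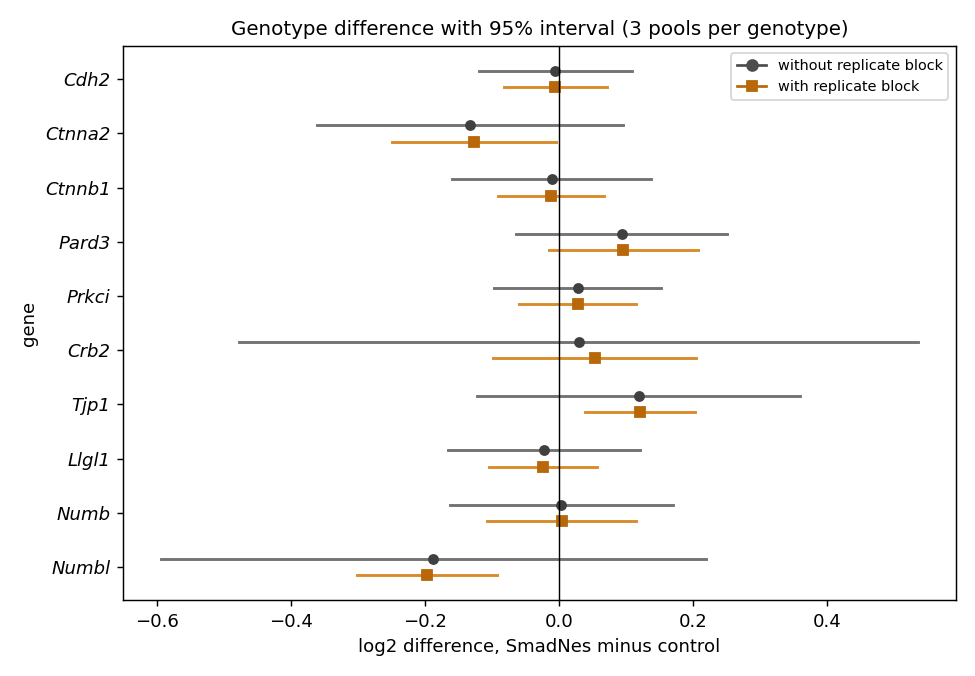
Log2 differences, SmadNes minus control, of the 10 genes (horizontal axis) with 95% intervals from edgeR, without the replicate block (grey circles) and with it (orange squares), n = 3 pools per genotype. All grey intervals cover 0, from the narrowest, Cdh2 (-0.12 to 0.11), to the widest, Crb2 (-0.48 to 0.54), and the orange intervals of Numbl, Tjp1 and Ctnna2 do not.

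No other tested gene of the same machinery passed the genotype test. Of 105 listed genes, 99 were tested, and edgeR called 0 with or without the block. Without it 0 lay below an unadjusted p of 0.05 and the smallest adjusted p was 0.99999, and with it 12 did (12 of 99, against 6.23% of all genes), at a smallest adjusted p of 0.516 for Celsr3. Of the 99, 53 had a positive log2 difference and the median was 0.0034. By list, 11 of 21 adherens junction genes, 8 of 15 Par and Par1 kinase genes, 5 of 8 Crumbs complex genes, 5 of 11 Scribble and Dlg genes, 6 of 14 tight junction genes, 5 of 12 Numb partners and 13 of 18 apical actin and planar polarity genes were positive. The list medians lay between -0.034 for tight junction genes and 0.018 for the actin and planar polarity genes. Cdh6, a cadherin of restricted brain regions, stood at 11.5 ± 2.82 CPM in SmadNes and 14.2 ± 1.34 CPM in controls (log2 difference -0.304, SE 0.183). Prkcz, the zeta form of atypical protein kinase C, stood at 20.7 ± 1.78 CPM in SmadNes and 23.0 ± 3.82 CPM in controls. Eps15, an endocytic adaptor, stood at 67.7 ± 1.56 and 62.7 ± 2.37 CPM in SmadNes and controls, and Ptk7, a planar polarity receptor, at 144 ± 3.14 and 136 ± 4.19 CPM (SD, n = 3 each). The groups of Eps15 and of Ptk7 did not overlap, as was so for 4.77% of all tested genes, and those of Cdh6 and Prkcz overlapped.

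For comparing levels between genes, CPM was divided by the length of the merged exons in kilobases. On this per-length scale Ctnnb1 led with 249 ± 9.82 CPM per kb (SD, n = 6 pools), above 99.6% of the tested genes. Cdh2 followed at 63.4 ± 1.43 and Llgl1 at 57.9 ± 2.49 CPM per kb, and the ranges of these 3 genes did not overlap. Tjp1 stood at 21.2 ± 2.10 and Ctnna2 at 15.5 ± 1.56 CPM per kb, with ranges that overlapped slightly. Numbl at 13.4 ± 2.18, Pard3 at 13.3 ± 0.801, Prkci at 12.6 ± 0.444 and Crb2 at 11.9 ± 2.32 CPM per kb were not separated by their spread. Numb was lowest at 8.70 ± 0.414 CPM per kb, still above 66.7% of the tested genes. The ranges of Numb and Crb2 over the pools overlapped, although Crb2 was the higher of the pair within 6 of 6 pools.

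Set beside their paralogs on the same per-length scale, most of the 10 genes were the main form of their family in these cells. Llgl1 made up 99.3% of the Lgl level on average, Ctnnb1 98.6% of beta-catenin plus plakoglobin (Jup), Crb2 93.2% of the Crumbs genes and Pard3 86.5% of the Par3 pair. Prkci held 78.5% of atypical protein kinase C. Among 7 classical cadherins Cdh2 held 71.5%, ahead of Cdh4 at 12.2 ± 1.19 and Cdh11 at 7.49 ± 2.63 CPM per kb, while Cdh1, E-cadherin of epithelia, was at 0.12 ± 0.090 CPM per kb. Ctnna2 was not the main alpha-catenin. It held 32.9%, below Ctnna1 at 31.6 ± 1.70 CPM per kb, and Ctnna3, an alpha-catenin best known from heart muscle, had between 0 and 4 counts per pool. Numb likewise held 39.8% of the Numb pair, the rest being Numbl, and 23.1% when counts were not divided by exon length.

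**Figure D3:**
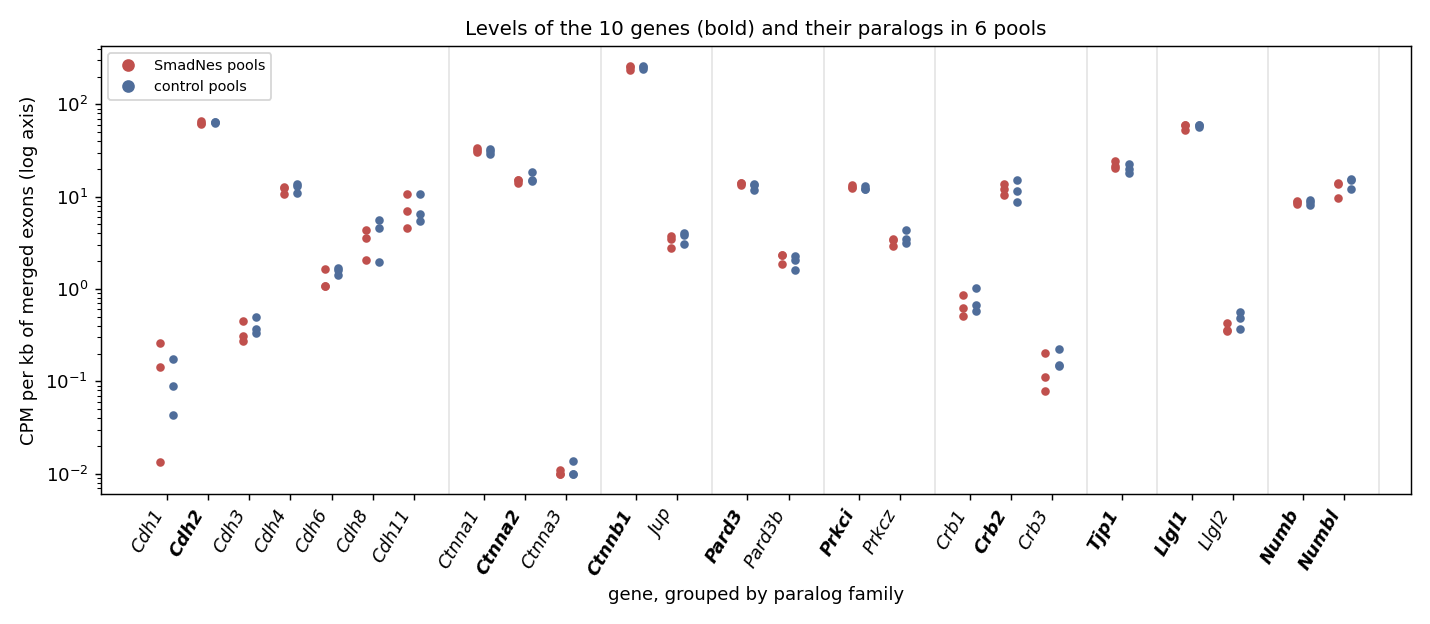
Level per length, as CPM per kb of merged exons on a log axis, of the 10 genes (bold) and their paralogs, grouped by family, with 3 SmadNes pools (red, left) and 3 control pools (blue, right) per gene. Tjp1 is drawn alone, and values below 0.01 CPM per kb are drawn at 0.01. Ctnnb1 stands highest at 249 CPM per kb on average, and Ctnna2 lies below Ctnna1 in every pool.

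The shares within families moved little between genotypes. Over the 9 families, exact permutation tests (two-sided, 3 pools against 3, smallest possible p 0.1) gave p between 0.1 and 0.8, and Benjamini-Hochberg adjusted values of at least 0.675, so this design could not reach 0.05. Crb2 had a share of 93.5%, 94.5% and 93.4% in SmadNes pools, against 92.3%, 92.9% and 92.8% in control pools. Those groups did not overlap, and the difference was 1.17 percentage points (exact p 0.1, adjusted 0.675, higher in 3 of 3 pairs), where Crb1 at 0.71 ± 0.197 CPM per kb and Crb3 at 0.15 ± 0.054 CPM per kb made up the remainder. In every other family reported here the groups overlapped. Without division by exon length, the Crb2 share differed by 1.66 percentage points at an exact p of 0.2, so its groups then overlapped as well. Numb had a share of 37.6%, 39.0% and 47.8% in SmadNes pools, against 34.4%, 37.6% and 42.3% in control pools (exact p 0.6, higher in 3 of 3 pairs). Ctnna2 had a share of 32.9%, 30.6% and 30.8% in SmadNes, against 39.1%, 32.2% and 31.7% in controls (exact p 0.3, lower in 3 of 3 pairs).

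More genes passed the test between pool names than between genotypes, for the 10 genes and over the whole table. In a model with genotype and pool name, edgeR called Crb2, Tjp1 and Numbl, 3 of the 10 genes, as different between names, against 28.8% of all tested genes and 33.4% of those averaging 10 CPM or more, so the share of the set was near the background. Crb2 rose in the SF5_6 pools, which had 91.5 CPM in SmadNes and 102 CPM in control cells, against 69.1 and 58.2 CPM in SF3 and 81.7 and 77.6 CPM in SF4. The log2 difference of SF5_6 was 0.604 (SE 0.082, adjusted p 0.000998) over SF3 and 0.28 (SE 0.081, adjusted p 0.0351) over SF4. Tjp1 rose as well, by 0.28 (SE 0.044, adjusted p 0.0022) over SF3 and 0.17 (SE 0.044, adjusted p 0.0199) over SF4. Numbl fell in SF5_6, with 83.9 CPM in SmadNes and 104 CPM in control cells, below each of the other 4 pools. Its log2 difference was -0.43 (SE 0.056, adjusted p 0.000781) against SF3 and -0.44 (SE 0.056, adjusted p 0.00073) against SF4. These contrasts share the SF5_6 pools. Between SF4 and SF3 none of the 10 was called, against 0.581% of all genes higher and 3.01% lower, and Crb2 there had a log2 difference of 0.32 (SE 0.082, adjusted p 0.076).

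**Figure D4:**
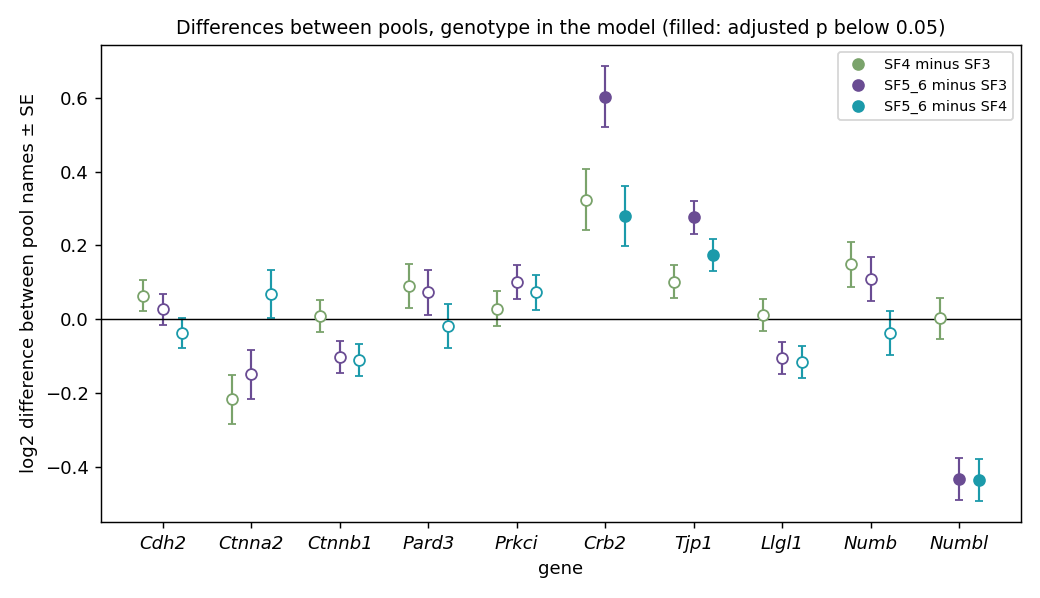
Log2 differences between pool names with SE (vertical axis) for the 10 genes, from the edgeR model with genotype and pool name (2 pools per name). Filled points have an adjusted p below 0.05. Crb2 and Tjp1 lie above 0 and Numbl below 0 in both contrasts of SF5_6, while no gene is filled for SF4 minus SF3.

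Around these 3 genes, 4 of the 7 lists had calls in 1 direction in SF5_6 against SF3, and 3 went both ways. Differences between lists were not tested. All called genes of the Crumbs list (3 of 8 tested, among them Mpp5 and Patj) and of the tight junction list (8 of 14, among them Cldn1 and Cldn12) were higher, against 13.5% of all genes called higher. All called genes of the Scribble and Dlg list (3 of 11, among them Dlg4) and of the Numb partners (4 of 12) were lower, against 13.9% of all genes called lower. Adherens junction genes went both ways, 8 higher and 4 lower of 21, with Cdh11 at a log2 difference of 0.67 and Cdh8 at -1.17. Par and Par1 kinase genes were 2 higher and 5 lower of 15, and apical actin and planar polarity genes 4 higher and 4 lower of 18. In SF5_6 against SF4, which shares the SF5_6 pools, Crumbs genes were 2 higher and 0 lower, tight junction genes 7 higher and 0 lower, Scribble and Dlg genes 0 higher and 2 lower, and Numb partners 1 higher and 1 lower. In that contrast adherens junction genes were 7 higher and 5 lower, Par and Par1 kinase genes 0 higher and 4 lower, and actin and planar polarity genes 4 higher and 4 lower. Mpp5 (Pals1) and Patj are partners of Crumbs, and Cldn1 and Cldn12 are claudins. These genes, like Dlg4, Cdh11 and Cdh8 in this contrast, are named after their values were seen, except where they are paralogs of the 10.

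Marker sums of other cells in the SF5_6 pools lay outside the range of the SF3 and SF4 pools, except those of microglia. In SF5_6 against SF3, microglial markers had 0 called higher and 2 lower, and endothelial markers had 0 calls. Against SF4, 8 microglial and 3 endothelial markers were called higher. Ventral forebrain markers (9 of 9 tested, Gsx2 below 1 CPM on average) summed to 188 CPM in SmadNes and 259.9 CPM in control SF5_6, against 70.3 to 122 CPM in the SF3 and SF4 pools. Mesenchymal markers (8 of 8 tested) summed to 1276 and 1016 CPM in SmadNes and control SF5_6, against 262 to 871 CPM in the rest. Surface epithelium markers (5 of 8 tested) summed to 10.47 and 12.6 CPM in SmadNes and control SF5_6, against 5.40 to 6.00 CPM, with Epcam between 1.95 and 4.17 CPM and Krt5, Krt14, Krt19, Cdh1 and Trp63 below 1 CPM on average. Choroid plexus and hem markers (8 of 8 tested) summed to 377 and 558 CPM in SmadNes and control SF5_6, against 274 to 348 CPM. Endothelial markers (7 of 8 tested) summed to 23.2 and 24.0 CPM in SmadNes and control SF5_6, against 17.9 to 22.7 CPM, with Tek, Tie1, Flt1, Cldn5 and Esam below 1 CPM on average. Microglial markers (8 of 8 tested, Aif1 below 1 CPM on average) summed to 63.9 and 60.4 CPM in SmadNes and control SF5_6, against 9.92 to 84.2 CPM. Erythroid markers (8 of 9 tested) summed to 594 and 999 CPM in SmadNes and control SF5_6, against 113 to 369 CPM. Markers of intermediate progenitors (6 of 6 tested) summed to 906 and 972 CPM in SmadNes and control SF5_6, against 1382 to 1501 CPM, and neuronal markers (12 of 12) to 5296 and 5269 CPM, against 5793 to 6692 CPM. Single neuronal markers went both ways, with 2 called higher and 7 lower in SF5_6 against SF3. Radial glia markers (11 of 11) summed to 2514 and 2448 CPM in SmadNes and control SF5_6, against 2012 to 2393 CPM. The part of these cells in the pool differences of Crb2, Tjp1 and Numbl was not tested.

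By the Pearson correlation of log2 CPM over the 6 pools, among 12868 protein-coding genes averaging 1 CPM or more, the gene most like Crb2 was Zfp36l1 (r = 0.998), followed by Wif1 and Arvcf. The pattern most like that of Numbl was Grik5 (0.997), then Emc10 and Fbxw5. For Tjp1 it was Gm42688 (0.996), then Kif16b and Hus1, and for Ctnnb1 it was Pam (0.998), then Fzd1 and Fryl. With 6 pools that fall into 3 names, such values were common, as 254 genes exceeded 0.95 for Crb2, 328 for Numbl and 731 for Ctnnb1, against 17 for Cdh2 and 14 for Pard3. They describe a shared pattern over pools and nothing more.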

How the data were processed

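The authors mapped reads of stranded mRNA libraries to GRCm38 with STAR 2.5.3a and estimated abundances with RSEM 1.3.0 on GENCODE M15, per the labels' protocols. DESeq2 1.18 is also named in the submitters' processing notes. The deposited table holds expected counts per gene, estimated by the authors, all of them whole numbers and unscaled. Sample titles name each of the 6 value columns.

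Genotype was tested on the counts by quasi-likelihood in edgeR 4.0.16 under R 4.3.3, after filterByExpr and with TMM scaling, and Benjamini-Hochberg adjustment ran over all 16869 genes that passed the filter. Standard errors were the log2 difference over the square root of its F. A gene was called at an adjusted p below 0.05. CPM used TMM-scaled library sizes. Differences between pool names came from a model with genotype and name. DESeq2 1.42.0 and limma 3.58.1 were alternatives. Gene positions and merged exon lengths are from GENCODE M21, the same genome build, which matched 52403 of the 52636 genes.

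The labels' protocols speak of 3 pairs of samples. Across genes, the departures of same-named pools from their genotype's mean had correlations of 0.493 (SF3), 0.697 (SF4) and 0.724 (SF5_6). The names were therefore taken to pair the pools. Differently named pools had correlations of -0.0582 or lower. Departures from a genotype's mean sum to 0, so these negative values are not separate evidence. EdgeR's common biological coefficient of variation was 0.0556 in the blocked and 0.1985 in the unblocked fit. Pools of 1 genotype differed by more than sampling noise (chi-square divided by its degrees of freedom, 11.4 to 47.7). Each p-value reflects only how these pools spread, which may come from litters, sorting or libraries. The fits were tested on simulated counts with known changes.

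The 10 genes, the other lists and the tests were chosen with earlier results of these data known. Named genes were the 10, their paralogs, named markers, the targeted genes, up to 2 genes per pathway list with the smallest unadjusted p between genotypes, and up to 3 most similar genes for each of the 10. Outside these rules, Celsr3 was named after its value was seen, for the smallest adjusted p of the other pathway genes with the block. The genes so described in the contrasts of pool names were also named after their values were seen. The log2 CPM used for similarity had 0.1 CPM added. The share of Tjp1 within its family entered the adjustment over 9 families and is not reported here.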

Additional observations from a re-analysis of the deposited data

How the results depend on the processing

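Each of the 10 genes remained uncalled between genotypes in all 17 alternatives, which changed the tool, scaling, filter or pairing, or left out a library or a pair. The sign of the log2 difference held in all 17 for Ctnna2, Pard3, Tjp1 and Numbl, but their size rested on single libraries. Numbl stood at -0.034 without SmadNes SF5_6, -0.12 without control SF3, -0.28 without SmadNes SF4 and -0.30 without control SF5_6, Tjp1 at 0.045 without control SF3, 0.049 without SmadNes SF5_6 and 0.20 without control SF5_6, Ctnna2 at -0.023 without control SF3, and Pard3 at 0.034 without control SF3. The sign changed in 9 for Numb and in 1 to 4 for Cdh2, Ctnnb1, Prkci, Crb2 and Llgl1. The median of the 10 lay between -0.028 and 0.025 when 1 library or pair was left out, the lowest without SmadNes SF4. Over all genes, where edgeR called 0, the calls between genotypes were 4 with the replicate block, 7 with DESeq2, 1 with limma-voom and 14 with DESeq2 and the block, and 0 to 149 when a library or, with the block, a pair was left out. The other pathway genes had 0 to 1 calls in those fits, the 1 being Cdh6 with the block and without the SF5_6 pair (log2 difference -0.46, adjusted p 0.0408). Between pool names, 3161 genes were called by DESeq2's likelihood ratio test, against 4864 by edgeR. With no filter on low counts 6 of the 10 were called between names, Ctnna2, Ctnnb1 and Llgl1 joining Crb2, Tjp1 and Numbl, and the cause was not tested. The SmadNes minus control differences in family share moved by less than the spread between pools in all 72 alternatives. Leaving out 1 library still changed the sign for Pard3 (-0.32 to 0.33 percentage points without SmadNes SF5_6) and Ctnnb1 (0.11 to -0.032 without SmadNes SF4). The Ctnna2 difference shrank from -2.87 to -0.50 without control SF3, and that of Numb from 3.37 to 0.21 without SmadNes SF5_6. The shares themselves depended on exon length, and without it Numb held 23.1% of its pair instead of 39.8%, and Crb2 88.4% of the Crumbs genes instead of 93.2%. With 3 pools per genotype, the intervals given show which differences remain possible under the fit named, and they are not limits of detection. Intervals without the block were wider, as for Crb2 (-0.48 to 0.54 without it, -0.099 to 0.21 with it). Without the block, Smad5 also went uncalled, at a log2 difference of 0.42.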
